A study of Rattus norvegicus with 48 samples.

Results

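MiR-103-3p and miR-107-3p are paralogous microRNAs (miRNAs) known as regulators of insulin sensitivity. They were followed here in the serum and ulna bone of lean and diabetic rats. The rows named rno-miR-103-3p and rno-miR-107-3p were taken from every library, which makes 2 of the 763 mature miRNAs listed, and their reads were also added together because the mature strands are nearly identical. The data held 48 small RNA libraries in 11 groups, 32 from serum in 7 groups and 16 from bone in 4 groups.

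MiRNAs guide Argonaute proteins to messenger RNAs through a short seed near their 5′ end and lower the output of the messages they bind. The genes of miR-103 and miR-107 lie inside genes for pantothenate kinases, enzymes of coenzyme A synthesis. In the liver of obese mice both miRNAs are known to be raised, and in adipocytes they are known to act on caveolin-1, a membrane protein that stabilises the insulin receptor. By sequence they belong to the wider miR-15/miR-107 group, which also holds miR-15, miR-16, miR-195, miR-424/322, miR-497 and miR-503, miRNAs known mainly for restraining the cell cycle.

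The pair is shown with its seeds (bases 2 to 8) in capitals. Only 1 base tells the strands apart, and it lies outside the capitals, near the 3′ end. The sequences are those of RefSeq (GRCr8).
rno-miR-103-3p: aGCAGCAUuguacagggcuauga
rno-miR-107-3p: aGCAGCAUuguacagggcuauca
Both strands are 23 nt long and share the seed GCAGCAU. They differ by 1 substitution, G22C, counted from 1 at the 5′ end with the base of miR-103-3p given first, so that 21 bases come before the difference and it is base 2 from the 3′ end. The authors kept reads of at least 17 nt and allowed 1 mismatch to the mature miRNA, and how a read that ends before base 22 was assigned is not given in the sources used here. The deposited files carry no read lengths.

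The other listed members of the miR-15/miR-107 group carry nearly the same letters shifted by 1 base, which is why they are printed beside the pair, again with bases 2 to 8 in capitals.
rno-miR-15b-5p: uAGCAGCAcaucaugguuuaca
rno-miR-16-5p: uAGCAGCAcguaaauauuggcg
rno-miR-195-5p: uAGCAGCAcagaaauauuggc
rno-miR-322-5p: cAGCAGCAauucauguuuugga
rno-miR-497-5p: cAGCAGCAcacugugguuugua
rno-miR-503-5p: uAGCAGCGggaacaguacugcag
Beyond these bases the sequences diverge from miR-103-3p and miR-107-3p, so only the pair itself is hard to tell apart in reads. The group also includes rno-miR-15a-5p.

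MiR-103-3p can be made from 2 loci and miR-107-3p from 1. On GRCr8, Mir103a1 lies at chr10:20748474-20748559 on the plus strand within Pank3, Mir103a2 at chr3:138963227-138963312 on the plus strand within Pank2, and Mir107 at chr1:241750418-241750504 on the minus strand within Pank1. The hairpins are shown with the mature 3p strand in capitals, to show that the loci of miR-103 give the same mature strand.
Mir103a1: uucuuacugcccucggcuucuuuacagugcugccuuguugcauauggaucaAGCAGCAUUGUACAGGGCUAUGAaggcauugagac
Mir103a2: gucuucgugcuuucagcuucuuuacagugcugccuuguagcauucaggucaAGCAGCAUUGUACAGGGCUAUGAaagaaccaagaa
Mir107: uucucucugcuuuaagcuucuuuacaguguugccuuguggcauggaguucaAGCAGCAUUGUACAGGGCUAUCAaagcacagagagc
The mature strand occupies bases 52 to 74 of each hairpin. The hairpins of Mir103a1 and Mir103a2 are 86 nt long and that of Mir107 is 87 nt long. Reads of miR-103-3p cannot be divided between its loci.

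All rats were male, received a high-fat, high-carbohydrate chow and carried a 3 mm defect in the femur. ZDF rats (fa/fa) carry a homozygous leptin receptor mutation in every tissue and become diabetic, and the lean ZDF +/+ rats served as wild type (WT). From an age of 11 weeks they were treated for 12 weeks. Placebo was water, parathyroid hormone (PTH) was injected at 75 µg/kg 5 times a week, and an antibody against sclerostin, a brake on bone formation, was injected at 25 mg/kg 2 times a week. Insulin was given to ZDF rats only and was raised from 0.5 IU in week 1 to 13 IU in week 12. Serum was sequenced from 5 placebo and 5 PTH rats of each genotype, 4 anti-sclerostin rats of each genotype and 4 insulin-treated ZDF rats, and bone from 4 rats in each of the placebo and PTH groups. By the study's methods the anti-sclerostin, PTH and insulin rats came from separate earlier experiments, and the placebo rats were credited to both the PTH and the insulin experiment. For anti-sclerostin against placebo, treatment and experiment cannot be told apart. Bones and sera came from the same rats apart from 2 of the 4 bones from ZDF rats under PTH, and the labels do not link them, so tissues were compared as independent samples.

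Libraries held 28015 to 205664 miRNA reads in serum and 41627 to 1398702 in bone. The shallowest bone libraries were replicates 1 and 2 of PTH-treated WT rats, with 54497 and 41627 miRNA reads. Levels are CPM, counts brought to the same total of miRNA reads in each library, further scaled by the trimmed mean of M-values (TMM). This scaling was done over the sera and over the bones separately, so that levels of serum and bone share no scale unless they are said to be scaled over all 48 libraries together. Scaled together, the 5 striated muscle miRNAs summed to 53196 to 442092 CPM in bone and 109 to 43744 CPM in serum. The 5 listed erythrocyte miRNAs ran the other way, from 8302 to 14041 CPM in bone and from 22614 to 428585 CPM in serum.

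Both members were abundant in every library. MiR-103-3p had 259 to 2044 reads in serum (median 821) and 137 to 13194 in bone (median 3531), and miR-107-3p had 208 to 1711 reads in serum (median 596.0) and 42 to 4108 in bone. Together they made up 1.02% to 2.91% of the miRNA reads in serum and 0.430% to 2.56% in bone. Among all miRNAs, miR-103-3p ranked between 14th and 33rd in serum libraries and between 15th and 40th in bone libraries. MiR-107-3p ranked lower, between 19th and 40th in serum and between 38th and 64th in bone. The opposite strands of the hairpins were nearly absent. In all serum libraries together rno-miR-103-1-5p had 6 reads, and rno-miR-103-2-5p and rno-miR-107-5p had 0 reads. In bone they had 10, 0 and 6 reads, beside 78248 reads of miR-103-3p and 21972 reads of miR-107-3p.

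Serum levels of the pair overlapped in all 7 groups. In placebo WT sera the sum was 13338, 14111, 13744, 19292 and 13719 TMM CPM, and in placebo ZDF sera it was 12546, 18729, 14855, 23258 and 22591 TMM CPM. The ZDF values reached higher, but the lowest serum of both groups was a ZDF serum. Under PTH the sum was 13280, 18774, 10371, 13074 and 30533 TMM CPM in WT sera and 10633, 14246, 12384, 15602 and 17362 TMM CPM in ZDF sera. A serum of a PTH-treated WT rat, replicate 5, was the highest of all sera, whereas the other 4 of its group lay within or below the range of the placebo WT sera. Under anti-sclerostin the sum was 26038, 14578, 25147 and 21628 TMM CPM in WT sera and 16826, 15462, 15002 and 23932 TMM CPM in ZDF sera. Insulin-treated ZDF rats had 20425, 14086, 29618 and 24558 TMM CPM. In both of the highest groups, WT anti-sclerostin and ZDF insulin, 3 of 4 sera lay above every placebo WT serum and replicate 2 did not.

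Ordered by mean, the serum sum was 22172 ± 6572 TMM CPM (SD, n = 4) in insulin-treated ZDF rats, 21848 ± 5207 (n = 4) in anti-sclerostin WT rats, 18396 ± 4693 (n = 5) in placebo ZDF rats and 17806 ± 4157 (n = 4) in anti-sclerostin ZDF rats. Below them were PTH-treated WT rats with 17207 ± 8051 TMM CPM (n = 5), placebo WT rats with 14841 ± 2503 (n = 5) and PTH-treated ZDF rats with 14045 ± 2640 (n = 5). No neighbours in this order differed beyond their spread (exact permutation tests on log2 values, two-sided, p = 0.349 to 1, all adjusted p = 1 over 6 pairs). The whole span from the highest to the lowest group was 0.63 on the log2 scale.

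In bone the sum was 15982, 13549, 12750.4 and 16998 TMM CPM in placebo WT rats and 18497, 16598, 12980.0 and 21401 TMM CPM in placebo ZDF rats. PTH-treated WT bones had 10532, 4063, 19052 and 23708 TMM CPM, and PTH-treated ZDF bones had 18315, 17748, 16091 and 19441 TMM CPM. The PTH-treated WT bones therefore spanned the lowest and the highest bone of all, and their lower values belonged to the shallow libraries, replicates 1 and 2. Group means were 17899 ± 1396 TMM CPM in PTH-treated ZDF bones, 17369 ± 3530 in placebo ZDF bones, 14820.0 ± 2000 in placebo WT bones and 14339 ± 8757 in PTH-treated WT bones (SD, n = 4 each). Neighbours did not differ beyond their spread (exact permutation tests, two-sided, p = 0.286 to 0.743, all adjusted p = 0.743 over 3 pairs).

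**Figure D1:**
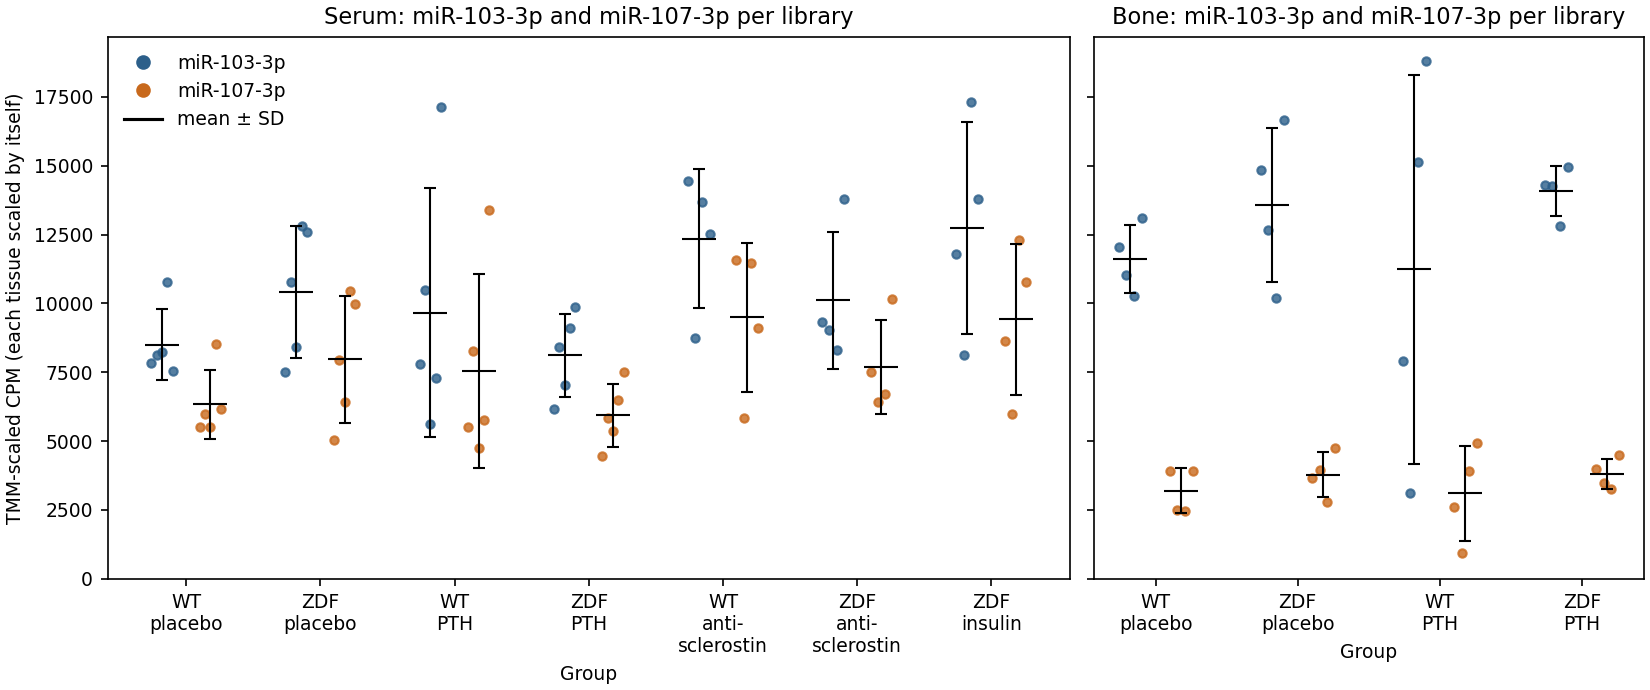
TMM-scaled CPM of miR-103-3p (blue) and miR-107-3p (orange) in each library, by group, in serum (left) and bone (right), with the group mean and SD as black bars. Sera and bones were scaled separately. Groups overlap within a tissue, and the gap between miR-103-3p and miR-107-3p is wider in bone than in serum.

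The first set of comparisons asked whether the diabetic genotype moves the pair. Log2 fold changes (log2FC), their SE and false discovery rates (FDR) are from edgeR's quasi-likelihood test with Benjamini-Hochberg adjustment over all miRNAs tested, and a miRNA was called at an FDR below 0.2, the threshold of the study. Because each value comes from whole serum or whole bone, fewer cells of a type and less RNA per cell cannot be told apart. Under placebo in serum, ZDF minus WT gave a log2FC of 0.24 ± 0.34 (SE; FDR = 0.891) for the sum, 0.19 for miR-103-3p and 0.22 for miR-107-3p. Neither member was called, where 10% of 370 miRNAs tested were. Under PTH in serum the sum had a log2FC of -0.30 ± 0.43 (FDR = 0.826) and 0 of 2 members were called, against 2.33% of 43 miRNAs tested. Under anti-sclerostin in serum the sum had a log2FC of -0.37 ± 0.43 (FDR = 0.894) and 0 of 2 members were called, against 3.69% of 325. The genotype difference thus had opposite signs in placebo sera and in treated sera, with intervals that all included 0. In bone the sum had a log2FC of 0.23 ± 0.33 (FDR = 0.793) under placebo, with 0 of 2 members called against 12.6% of 231 miRNAs. Under PTH in bone it was 0.32 ± 0.43 (FDR = 0.743), with 0 of 2 members called against 5.36% of 261.

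The bone treatments were compared next, within each genotype. PTH against placebo gave a log2FC of 0.09 ± 0.43 (FDR = 0.989) for the sum in WT sera and -0.40 ± 0.37 (FDR = 0.694) in ZDF sera. In both comparisons 0 of 2 members were called, against 1.08% of the miRNAs tested in each. In bone PTH against placebo gave -0.08 ± 0.48 (FDR = 0.956) in WT rats, with 0 of 2 members called against 14.2% of 387 miRNAs. In ZDF bones it gave 0.01 ± 0.28 (FDR = 0.999), where 0% of 569 miRNAs were called by edgeR and 42 had an unadjusted p below 0.05. This was the narrowest interval of all 13 comparisons within a tissue, from -0.57 to 0.59 on the log2 scale. Anti-sclerostin against placebo gave 0.52 ± 0.38 (FDR = 0.628) in WT sera, with 0 of 2 members called against 5.57% of 305 miRNAs, and -0.09 ± 0.38 (FDR = 0.916) in ZDF sera, with 0 of 2 called against 8.03% of 299. In WT sera miR-103-3p alone had an exact permutation p of 0.0397 (two-sided, 4 against 5 sera), and an adjusted p of 0.169 over the 17 comparisons.

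Insulin was the treatment with most miRNAs called in ZDF serum, and the pair was not among them. Against placebo ZDF sera the sum had a log2FC of 0.32 ± 0.31 (FDR = 0.658), miR-103-3p 0.24 and miR-107-3p 0.19, and 0 of 2 members were called against 15.9% of 309 miRNAs. Against placebo WT sera the sum was 0.60 ± 0.36 (FDR = 0.429), the largest difference within a tissue, and 0 of 2 members were called against 12.3% of 349. Scaled to all library reads instead, miR-107-3p had a log2FC of -0.68 (FDR = 0.1998) in this comparison, the opposite sign to its 0.58 under TMM. Levels by exact permutation gave p = 0.0635 for this comparison of 4 against 5 sera (two-sided, adjusted p = 0.360 over 17 comparisons). Erythrocyte miRNAs moved with the insulin group. Their summed level was 233717 to 381758 TMM CPM in insulin-treated ZDF sera and 87537 to 159810 TMM CPM in placebo ZDF sera, and 3 of the 5 listed were called higher with 0 lower. Insulin and placebo ZDF sera were also compared with a hemolysis covariate, the log2 level of miR-451-5p, which red cells carry, over that of miR-23a-3p. The difference of the sum was then 0.80 ± 0.90 (SE, FDR = 0.921), against 0.32 ± 0.31 without the covariate. MiR-451-5p itself was higher in the insulin-treated sera (log2FC = 2.33 ± 0.31, FDR = 1.8e-11). The covariate thus moved with the group, so this fit cannot decide whether the sum differs.

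Whether a treatment acted differently in the genotypes was tested as an interaction. The interaction of genotype with PTH in serum was -0.63 ± 0.55 (log2; FDR = 0.873) for the sum, and 0 of 2 members were called against 2.25% of 267 miRNAs. It was -0.50 ± 0.54 (FDR = 0.925) for anti-sclerostin in serum, with 0 of 2 called against 1.06% of 283, and 0.07 ± 0.62 (FDR = 0.998) for PTH in bone, with 0 of 2 called against 3.03% of 264. The SE of these interactions were larger than those of the genotype differences themselves, and the interval of the sum for PTH in bone ran from -1.15 to 1.297.

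Over the 13 comparisons within a tissue the log2FC of the sum ran from -0.40 to 0.60 with SE of 0.28 to 0.48, FDR ran from 0.429 to 0.999, and the 95% intervals reached from -1.22 to 1.31. The members moved nearly together, from -0.35 to 0.59 for miR-103-3p and from -0.37 to 0.58 for miR-107-3p. In each of the 13 comparisons the ranges of the groups overlapped for miR-103-3p, miR-107-3p and the sum. Between genotypes, groups did not overlap for 2.7% of the miRNAs tested under placebo, 0% under PTH and 3.08% under anti-sclerostin in serum, and for 8.23% under placebo and 7.28% under PTH in bone. For PTH against placebo this share was 0.36% in WT sera, 0% in ZDF sera, 3.62% in WT bones and 1.41% in ZDF bones. For anti-sclerostin it was 2.3% in WT and 2.34% in ZDF sera, for insulin 6.15%, and for insulin-treated ZDF against placebo WT sera 4.58%.

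**Figure D2:**
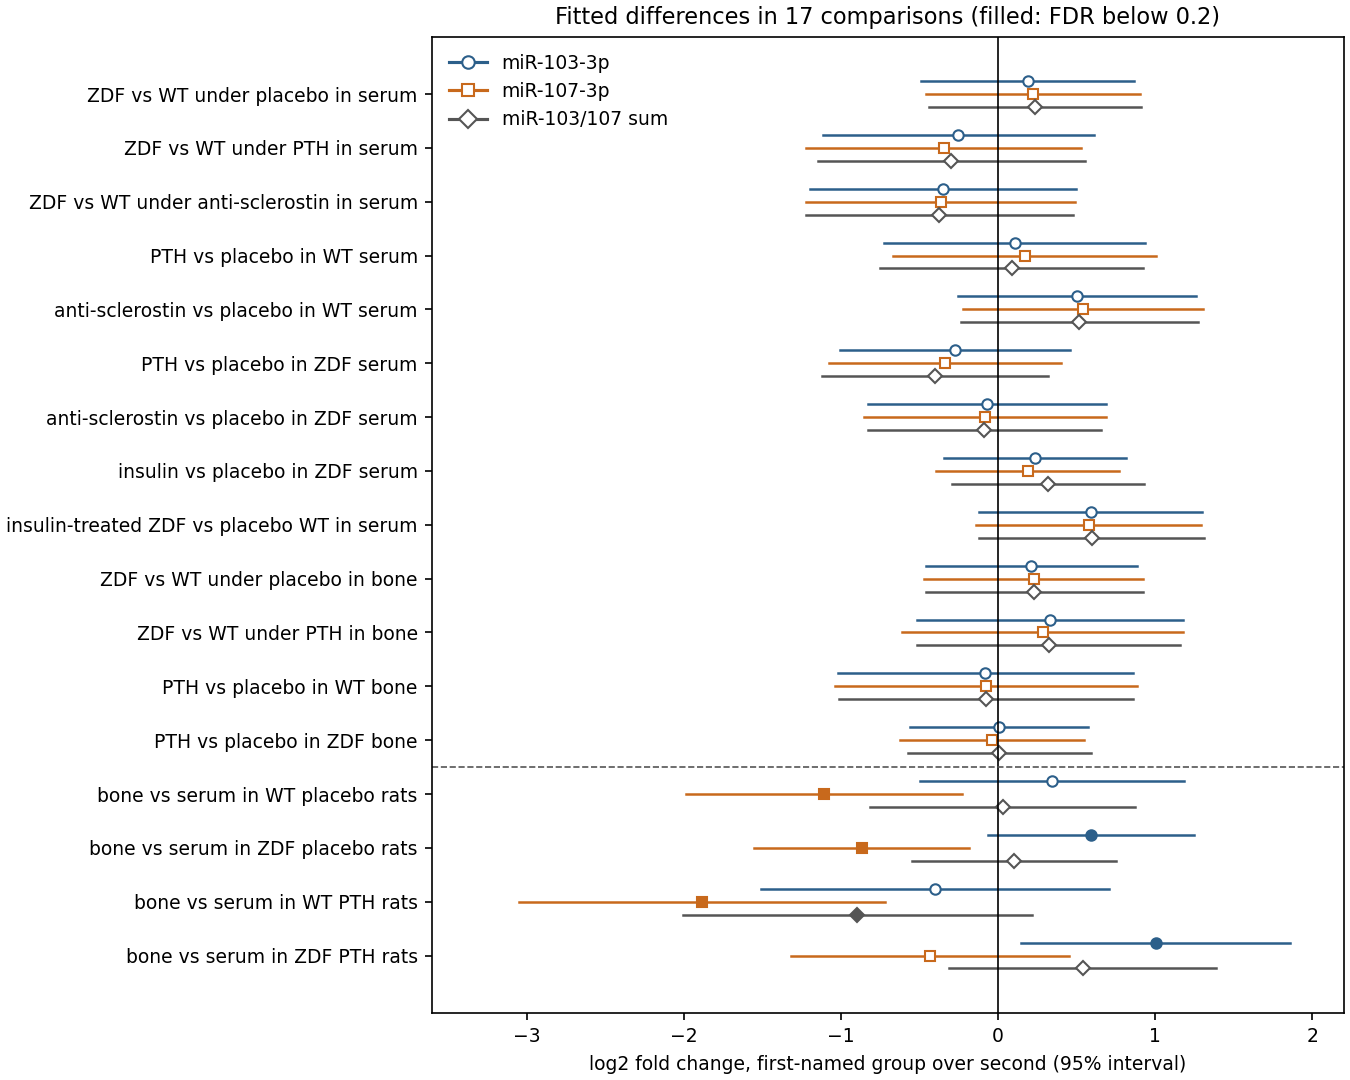
Fitted log2 fold changes with 95% intervals for miR-103-3p (blue circles), miR-107-3p (orange squares) and their sum (grey diamonds) in 17 comparisons, the first-named group over the second. Filled symbols passed an FDR of 0.2, and these lie only in the 4 comparisons of bone with serum under the dashed line, where the members separate.

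Within each tissue the paralogs kept a nearly fixed proportion. The share of miR-107-3p in the reads of the pair was 40.0% to 45.9% in the 32 sera (median 42.8%, mean 42.9 ± 1.63, SD). In 29 of the 32 sera the 95% Wilson interval of the library's own share included that median. In the 16 bones the share was 18.6% to 24.9% (median 21.7%, mean 21.7 ± 1.96, SD), and 8 of 16 intervals included the median. Even the shallowest bone library, with 42 of 179 reads, gave 23.5% (Wilson interval 17.9% to 30.2%). The lowest bound of any serum was 36.6% and the highest bound of any bone was 30.2%, counting error only, so that no interval of a bone overlapped one of a serum.

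This proportion differed between tissues in every group that had both. In placebo WT rats the share was 21.4% ± 2.87 in bone (SD, n = 4) and 42.6% ± 2.05 in serum (n = 5), in placebo ZDF rats 21.8% ± 1.66 and 43.0% ± 1.83. In PTH-treated WT rats it was 22.4% ± 2.13 and 43.9% ± 1.62, and in PTH-treated ZDF rats 21.2% ± 1.56 and 42.2% ± 1.00. On the log2 scale the ratio of miR-107-3p to miR-103-3p was lower in bone by -1.46, -1.44, -1.44 and -1.44 in that order. Each difference had an exact permutation p of 0.00794 (two-sided, 4 bones against 5 sera), the smallest these group sizes allow, and an adjusted p of 0.0337 over 17 comparisons. The ratio uses both members of the same library and is therefore independent of scaling between tissues.

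**Figure D3:**
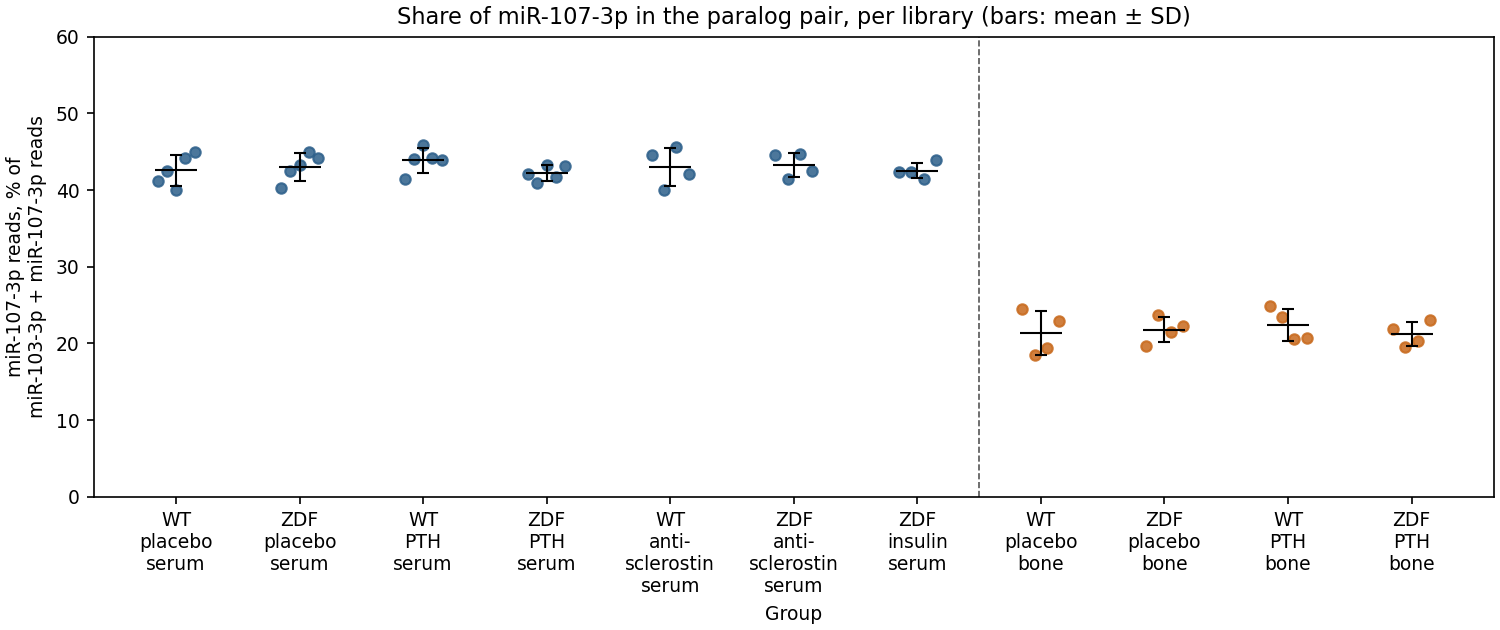
Share of miR-107-3p in the reads of miR-103-3p plus miR-107-3p (%, axis from 0) in each library of 7 serum groups (blue) and 4 bone groups (orange), with mean and SD. The lowest serum lies at 40.0% and the highest bone at 24.9%, with little difference between groups of a tissue.

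Genotype and treatment moved the ratio little. In 13 comparisons within a tissue 0 ratios differed at an adjusted p below 0.2, and the lowest exact permutation p was 0.0794, for ZDF against WT sera under PTH (42.2% ± 1.00 against 43.9% ± 1.62, n = 5 each, two-sided, adjusted p = 0.270). Under placebo the difference in log2 ratio between genotypes was 0.03 in serum and 0.05 in bone. Insulin against placebo in ZDF sera gave -0.03.

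The fold changes of the members between tissues come from the same counts as the ratio, so the split between them is not separate evidence. MiR-107-3p was lower in bone than in serum in placebo WT rats (log2FC = -1.11 ± 0.45 SE, FDR = 0.0337 by edgeR's quasi-likelihood test), where 64.8% of 509 miRNAs were called. It was also lower in placebo ZDF rats (-0.87 ± 0.35, FDR = 0.0266, 69% of 504 called) and in PTH-treated WT rats (-1.88 ± 0.60, FDR = 0.0062, 59.3% of 519 called). In PTH-treated ZDF rats its log2FC was -0.44 ± 0.45 (FDR = 0.416), where 70.8% of 500 miRNAs were called. MiR-103-3p was higher in bone in PTH-treated ZDF rats (1.00 ± 0.44, FDR = 0.0423) and in placebo ZDF rats (0.59 ± 0.33, FDR = 0.121). The call in placebo ZDF rats was lost in 1 fit over all groups (0.51, FDR = 0.338), with RLE size factors (0.39, FDR = 0.334), DESeq2 (0.39, FDR = 0.235), the total of miRNA reads (0.35, FDR = 0.362) and that total without erythrocyte miRNAs (0.18, FDR = 0.635). It was also lost without serum replicate 1 (0.55, FDR = 0.252), bone replicate 1 (0.60, FDR = 0.224) or bone replicate 4 (0.43, FDR = 0.322). The call in PTH-treated ZDF rats was lost with the total without erythrocyte miRNAs (0.55, FDR = 0.285). There miR-107-3p became a call with that total (-0.89, FDR = 0.0928), the total of miRNA reads (-0.73, FDR = 0.164) and DESeq2 (-0.51, FDR = 0.156). In PTH-treated WT rats miR-107-3p had a log2FC of -0.98 (FDR = 0.1796) without serum replicate 5. In the WT groups miR-103-3p had a log2FC of 0.34 ± 0.43 (FDR = 0.523, placebo WT) and -0.40 ± 0.56 (FDR = 0.549, PTH-treated WT). With so many miRNAs called between the tissues, a call of either member is near the background. Scaled over all 48 libraries together, the levels of miR-107-3p did not overlap between tissues in placebo WT rats, with 2688 to 4140 TMM CPM in bone and 6064 to 8932 TMM CPM in serum, where 34.8% of miRNAs did not overlap. Those of miR-103-3p did not overlap in PTH-treated ZDF rats, with 13318 to 14685 TMM CPM in bone and 4999 to 9988 TMM CPM in serum, where 41% of miRNAs did not. In placebo ZDF rats (41.7%) and PTH-treated WT rats (28.5%) the ranges of both members overlapped on this common scale. For miR-107-3p they were 3331 to 4821 TMM CPM in bone and 4446 to 9984 TMM CPM in serum in placebo ZDF rats, and 1084 to 4981 TMM CPM against 3998 to 13042 TMM CPM in PTH-treated WT rats.

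On the same common scale the summed level of the pair had a median of 16645 TMM CPM in serum and 16996.5 TMM CPM in bone. Its log2FC between bone and serum was 0.03 (FDR = 0.960) in placebo WT, 0.10 (FDR = 0.803) in placebo ZDF and 0.54 (FDR = 0.291) in PTH-treated ZDF rats. In PTH-treated WT rats it was -0.90 ± 0.57 (FDR = 0.185) and was called, but not in 1 fit over all groups (-0.12, FDR = 0.863), nor without the shallow bone replicate 2 (-0.02, FDR = 0.977), and the sign turned without serum replicate 5 (0.023, FDR = 0.977). In PTH-treated ZDF rats the sum became a call without bone replicate 2 (0.86, FDR = 0.118). Scaled to all reads of the library instead of miRNA reads the sum was higher in bone by 1.33 to 2.91 on the log2 scale and miR-107-3p by 0.27 to 1.94. The lowest of these for miR-107-3p, 0.27 ± 0.83 (SE, FDR = 0.811) in PTH-treated WT rats, was not called. MiRNAs made up 1.58% to 21.5% of library reads in bone and 0.529% to 4.09% in serum. The direction of the sum between bone and serum therefore moved with the choice of scale. The striated muscle and erythrocyte miRNAs given above differ between the tissues along with these values, and their part in the result was not tested.

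How far such a shift in proportion is shared by other near-identical miRNAs was examined in a comparison chosen after the data were seen. It took all pairs whose strands differ first at base 18 or later and whose members both had a mean of at least 100 CPM in each tissue. In 2 of the 7 pairs (28.6%) the share of the second member did not overlap between sera and bones. These were miR-103-3p with miR-107-3p and miR-23a-3p with miR-23b-3p, which first differ at base 19 and where miR-23b-3p made up 6.40% to 27.5% of the pair in serum and 28.8% to 45.6% in bone. Among the others, miR-27b-3p ranged from 16.0% to 71.4% of its pair in serum and from 65.0% to 90.0% in bone, and miR-133b-3p from 0% to 3.37% and from 0.756% to 4.84%. The range of miR-107-3p within a tissue was narrower than those of let-7c-5p, miR-146b-5p, miR-23b-3p and miR-27b-3p in both serum and bone. It was also narrower than that of miR-29c-3p, at 90.7% to 98.5% in serum and 90.6% to 98.5% in bone. In both tissues it was wider than that of miR-133b-3p. The pairs differ in depth, so neither these ranges nor their overlap between tissues carry the same counting error. In serum let-7a-5p had a median of 177 TMM CPM and miR-29b-3p 321 TMM CPM. The medians of miR-103-3p and miR-107-3p there were 9069 and 6605 TMM CPM. The part of counting error in the ranges was not tested.

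Counts of an identical pair were examined for how shared reads were treated. The strands of let-7a-1-3p and let-7c-2-3p are identical over their whole length, and their counts were equal in 45 of 48 libraries (32 of 32 sera and 13 of 16 bones) and differed by at most 1 read elsewhere. In this pair the names thus received shared reads in nearly equal number. The counts do not tell whether each name got all of them or a part. How this carries over to a pair that differs by 1 base was not tested. If reads of miR-103-3p and miR-107-3p that end before base 22 were counted in full under both names, the sum and its percent of miRNA reads hold them more than once. The share of miR-107-3p would then include them too. The part of such reads in the difference between tissues was not tested.

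**Figure D4:**
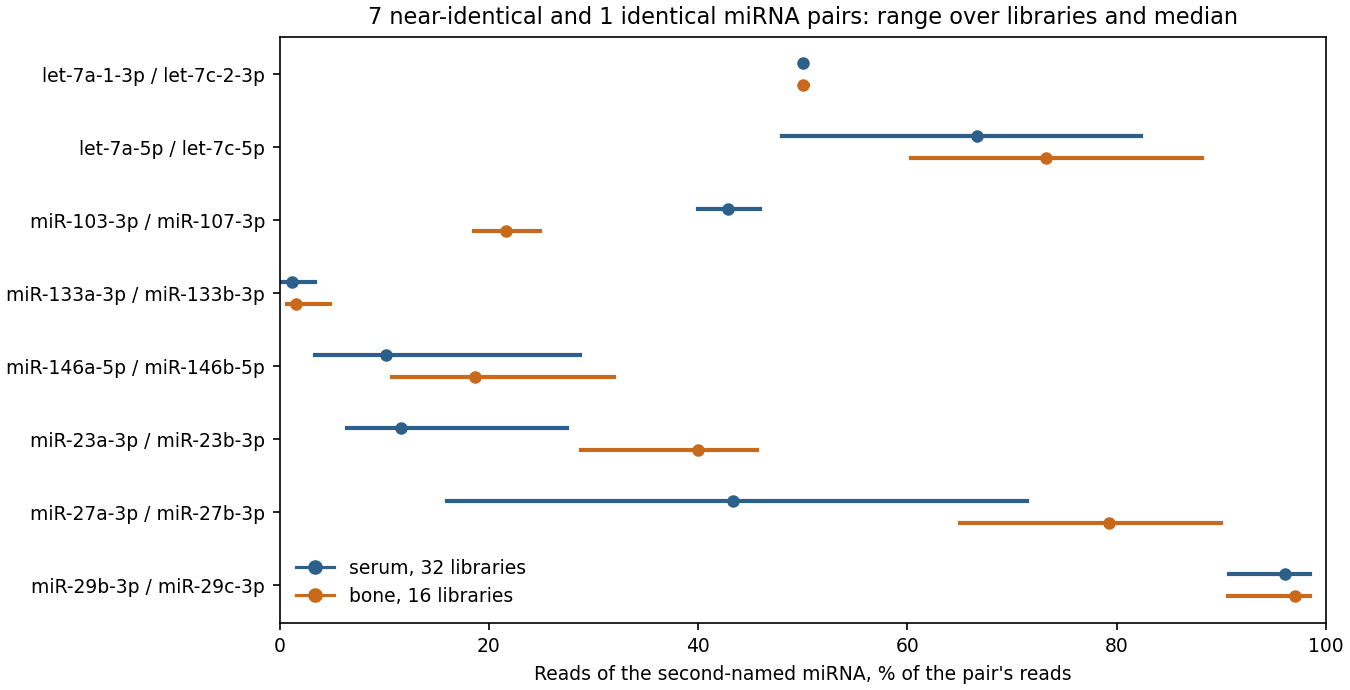
Share of the second-named miRNA in the reads of 7 near-identical pairs and 1 identical pair (%), as the range over libraries (lines) and the median (points) in 32 sera (blue) and 16 bones (orange). Serum and bone ranges are apart for miR-103-3p with miR-107-3p and for miR-23a-3p with miR-23b-3p, and the identical pair let-7a-1-3p with let-7c-2-3p stays near 50%.

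The relatives of the pair in the miR-15/miR-107 group were described from 8 names, of which 7 were listed in the files (rno-miR-424-5p was not). In serum the most abundant was miR-16-5p with a median of 64669 TMM CPM, and miR-15a-5p followed with 9695 TMM CPM, close to the 9069 TMM CPM of miR-103-3p. In bone the medians were 15617 TMM CPM for miR-16-5p, 7590 TMM CPM for miR-497-5p and 12958 TMM CPM for miR-103-3p, so that the order within the tissue changed. The strands printed above are 21 to 23 nt long, and the levels are counts of reads that were not scaled to length.

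Between tissues, 3 of these 7 were called higher and 3 lower in bone in each of the 4 comparisons. Most miRNAs of any kind were called there. The share was 64.8% in placebo WT, 69% in placebo ZDF, 59.3% in PTH-treated WT and 70.8% in PTH-treated ZDF rats. MiR-195-5p, miR-322-5p and miR-497-5p were higher, with a log2FC in placebo WT rats of 4.73 ± 0.55 (FDR = 8.7e-16), 2.66 ± 0.51 (FDR = 1.7e-06) and 2.51 ± 0.45 (FDR = 1.9e-07). MiR-15a-5p, miR-15b-5p and miR-16-5p were lower, with -1.55 ± 0.45 (FDR = 0.0022), -3.44 ± 0.53 (FDR = 1.4e-09) and -1.66 ± 0.44 (FDR = 0.00079). MiR-503-5p had log2FC of -0.87 to 1.04 and was not called in any of them. The median log2FC of the list was -0.16 in placebo WT rats, beside 0.38 over all miRNAs tested.

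Within a tissue the calls of relatives are set beside the share of all miRNAs tested that were called. MiR-15b-5p was lower in ZDF than in WT rats under placebo, with a log2FC of -1.09 ± 0.38 in serum (FDR = 0.0723) and -1.65 ± 0.52 in bone (FDR = 0.104), where miR-195-5p was also lower (-1.21 ± 0.40, FDR = 0.125). Thus 1 of 7 relatives tested was called in placebo sera, against 10% of 370 miRNAs. In placebo bones it was 2 of 6, against 12.6% of 231 miRNAs. In WT bones miR-15b-5p was lower under PTH than placebo (-1.38 ± 0.58, FDR = 0.138), 1 of 7 tested against 14.2% of 387 miRNAs. Over all bones the level of miR-15b-5p was only 0 to 302 TMM CPM (median 54.8), so its calls in bone rest on low levels. The PTH-treated WT bones also include the shallow libraries, replicates 1 and 2. MiR-497-5p was lower under anti-sclerostin than placebo in WT sera (-1.13 ± 0.44, FDR = 0.189) and ZDF sera (-1.14 ± 0.46, FDR = 0.191). It was 1 of 7 tested in each, against 5.57% of 305 miRNAs in WT sera and 8.03% of 299 in ZDF sera. Under insulin miR-15a-5p was higher than in placebo ZDF sera (0.90 ± 0.29, FDR = 0.0378), 1 of 7 tested against 15.9% of 309 miRNAs. Against placebo WT sera insulin-treated ZDF sera had more miR-15a-5p (0.81 ± 0.36, FDR = 0.1999) and less miR-195-5p (-2.24 ± 0.94, FDR = 0.156). Of 7 relatives tested there, 1 was higher and 1 lower, against 12.3% of 349 miRNAs called. MiR-195-5p was near the floor in serum, at 0 to 218 TMM CPM over all sera (median 34.9), so its difference rests on few reads. In the 6 remaining comparisons within a tissue 0 of the listed relatives were called, where 0% to 5.36% of all miRNAs tested were. For ZDF against WT sera under PTH only 2 of the 7 relatives passed the filter and were tested.

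A further list held 14 miRNAs known outside these data to bear on insulin sensitivity or glucose uptake. In placebo sera 2 of 14 were higher in ZDF than in WT rats and 0 lower, where 10% of 370 miRNAs tested were called in either direction. The median log2FC of the list was -0.08 there, beside -0.19 over all miRNAs tested. They were miR-802-5p (log2FC = 2.68 ± 0.46, FDR = 8.4e-07), known to be raised in the liver of obese mice, and miR-122-5p (1.90 ± 0.43, FDR = 0.0008), the main miRNA of hepatocytes. Under insulin in ZDF sera 1 of 14 was higher and 5 were lower, with a median log2FC of -0.25 over the list beside -0.15 over all miRNAs tested, of which 15.9% were called. The lower ones were miR-122-5p (-1.37 ± 0.39, FDR = 0.010), miR-143-3p (-1.03 ± 0.30, FDR = 0.013), miR-802-5p (-0.95 ± 0.38, FDR = 0.098), miR-29a-3p (-0.86 ± 0.30, FDR = 0.054) and miR-29c-3p (-0.84 ± 0.30, FDR = 0.067), and miR-93-5p was higher (0.85 ± 0.30, FDR = 0.054). MiR-29a-3p and miR-29c-3p are known to lower insulin-stimulated glucose uptake in muscle and fat cells, and miR-143-3p is known to dampen insulin signalling in liver. Under anti-sclerostin miR-143-3p was lower than under placebo in WT sera (-1.20 ± 0.40, FDR = 0.0793) and ZDF sera (-2.65 ± 0.42, FDR = 7.9e-08), and in ZDF sera miR-223-3p was higher (0.96 ± 0.37, FDR = 0.168). Of 14 tested, 1 was thus lower in WT sera, against 5.57% of 305 miRNAs called. In ZDF sera 1 of 14 was higher and 1 lower, against 8.03% of 299. MiR-122-5p was higher in ZDF than in WT sera under anti-sclerostin (2.40 ± 0.56, FDR = 0.0032), 1 of 14 tested against 3.69% of 325 miRNAs. Under PTH miR-143-3p was higher in ZDF than in WT sera (1.32 ± 0.45, FDR = 0.176). There only 6 of the 14 passed the filter, and 1 was called against 2.33% of 43 miRNAs. MiR-802-5p was higher under PTH than placebo in WT sera (1.80 ± 0.56, FDR = 0.183), 1 of 14 tested against 1.08% of 278 miRNAs. Insulin-treated ZDF sera had more miR-802-5p (1.90 ± 0.52, FDR = 0.0113) and miR-93-5p (1.17 ± 0.37, FDR = 0.0320) and less miR-29a-3p (-0.88 ± 0.37, FDR = 0.156) than placebo WT sera. Of 14 tested in that comparison 2 were higher and 1 lower, against 12.3% of 349 miRNAs called. In WT bones under PTH miR-143-3p was higher (1.61 ± 0.47, FDR = 0.0139) and let-7b-5p lower (-1.48 ± 0.50, FDR = 0.0497) than under placebo. Of 12 tested there, 1 was higher and 1 lower, against 14.2% of 387 miRNAs called. In placebo bones 0 of 12 tested members of the list were called between genotypes, beside 12.6% of all tested. Between tissues 6 of 14 were called higher and 4 lower in bone in placebo WT rats, where 64.8% of all miRNAs tested were called. The levels of miR-802-5p and miR-122-5p in bone had a median of 0 TMM CPM, whereas miR-103-3p and miR-107-3p were present in every serum and every bone.

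Across libraries the pair followed each other most closely. Among 168 miRNAs with a mean of at least 100 TMM CPM in serum, miR-107-3p had the highest Spearman correlation with miR-103-3p (rho = 0.96 over 32 sera), and among 176 in bone it again had the highest (rho = 0.83 over 16 bones). Of other miRNAs, those most like the sum were miR-140-3p in serum (rho = 0.69), a miRNA of cartilage, followed by miR-130b-3p (0.54), miR-425-5p (0.54), miR-362-3p (0.50) and miR-23a-3p (0.49). In bone they were miR-196b-5p (0.81), miR-21-5p (0.80), miR-218a-5p (0.80), miR-411-5p (0.74) and miR-181d-5p (0.72). These values describe the libraries, which share their scaling and differ in depth, and were not tested. Reads that end before base 22 match both strands of the pair. If counted under both names they would raise the correlation of miR-103-3p with miR-107-3p, and their part was not tested.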

How the data were processed

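Small RNA from 32 rat sera (100 µL each) and 16 ulna homogenates was sequenced. The authors trimmed adapters (cutadapt), discarded reads under 17 nt and used bowtie with miRDeep2 for mapping, to Rnor 6.0 (2 mismatches) and then to miRBase (1 mismatch). The deposited counts are whole reads per mature miRNA, without normalization. The deposited RPM values, scaled by the authors to all library reads, served only to recover library totals.

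Groups were taken from the labels. MiRNAs without a read were dropped, then low ones by independent filtering (50 quantiles of mean CPM, up to 0.95) for most calls at FDR < 0.2. Fits used edgeR 4.0.16 (R 4.3.3, quasi-likelihood, TMM) with the groups of each comparison, tested on simulated data. The sum entered as 1 row in place of both members. Levels were scaled by TMM within each tissue, and over all 48 libraries for bone against serum, and tested as log2(TMM CPM + 1) and ratios with 0.5 added to each count. DESeq2 1.42.0, other scalings and filters, and leaving out each replicate were tried. Genes named were the members, their other strands, 2 lists (those called within a tissue; between tissues only those of the miR-15/miR-107 group), and the 5 miRNAs most like the sum. Members and lists were chosen with earlier results of these data known. Replicates are different rats by the study's methods. Mature sequences were found in RefSeq for 686 of 763 miRNAs. Replicates of a group differed beyond counting noise in all 82 pairs (lowest chi-square per degree of freedom 12.7), so none was merged.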

Additional observations from a re-analysis of the deposited data

Results flagged for a closer look

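Replicate 4 of the placebo WT sera stood apart from the other 4 of its group, with 10761 TMM CPM of miR-103-3p, 8531 TMM CPM of miR-107-3p and 19292 TMM CPM in sum. Its gap to the next serum took up more of the group's range than Dixon's 95% limit for 5 samples. These were 3 of 44 groups and quantities examined, chance alone flags about 1 in 20, and the 3 share the same library. Its share of miR-107-3p was within the range of the other sera of the group.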

How the results depend on the processing

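Here an uncalled value has no direction, so a value uncalled in both settings counts as kept. The log2 ratio of miR-107-3p to miR-103-3p between tissues kept its sign in all 4 groups under another pseudocount and without each replicate in turn (-1.55 to -1.38). Within a tissue the sum stayed uncalled in 161 alternatives and in 116 fits without a replicate, with log2FC of -0.93 to 1.06, although its sign changed in 26 and 12 of them, most often with extraction controls as library size (6 of 9). MiR-107-3p between insulin-treated ZDF and placebo WT sera, uncalled at 0.58, was called at -0.68 with all library reads as the total. The ratio between ZDF and WT sera under PTH was -0.13 to -0.068 without single replicates, and was called without WT replicate 1 (adjusted p = 0.054). Levels moved by less than 1 SD in all 33 settings.

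Between bone and serum the sum depended on scaling. With all library reads as the total it was 2.27 (placebo WT), 2.78 (placebo ZDF), 1.33 (PTH-treated WT) and 2.91 (PTH-treated ZDF). In the same setting miR-107-3p turned to 1.24, 1.82, 0.27 (uncalled, FDR = 0.811) and 1.94, and miR-103-3p in PTH-treated WT rats to 1.82. In PTH-treated WT rats the call of the sum was lost in 1 fit of all groups (-0.12), with RLE size factors (-0.65), DESeq2 (-0.65), the total of miRNA reads (-0.13), that total without erythrocyte miRNAs (-0.27) and filterByExpr, with or without independent filtering (-0.61), and it ran from -0.79 to 0.023 without each replicate. In PTH-treated ZDF rats the sum was called with DESeq2 (0.46) and filterByExpr (0.50 either way), and ran from 0.41 to 0.86 without each replicate. The cause was not tested. No paired analysis was possible because the labels do not link bones to sera and give the groups no shared replicate numbers.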
